A study of Homo sapiens with 4 samples.

Results

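Transcripts of genes known as TGF-β responses and metastasis mediators of breast cancer cells were examined for N6-methyladenosine (m6A). These were IL11, CCN2, PTHLH, ANGPTL4, ADAMTS1, MMP1, CXCR4, TGFBI and PTGS2. The 9 genes were taken by symbol, as known TGF-β responses and metastasis mediators, and looked up in a list of 20261 m6A peaks on 10140 gene IDs. Of the 9 genes, 6 carried 11 peaks between them. CCN2 and ADAMTS1 had the strongest peaks, CXCR4 was intermediate, and PTHLH, IL11 and MMP1 had weak peaks. ANGPTL4, TGFBI and PTGS2 had no peak.

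The list came from m6A-seq of poly(A) RNA of MDA-MB-231, a human cell line established from triple negative breast cancer and of mesenchymal character. All 4 libraries were labelled shNS, 2 of input RNA and 2 of RNA immunoprecipitated (IP) with an anti-m6A antibody. Although YTHDC1 is named in the treatment field of both IP libraries, the titles and the protocol speak of m6A, and these were followed. The labels name no TGF-β treatment, so the transcripts were measured as these cells express them without a stated stimulus. The replicates had been combined into 1 list with 1 score per peak, and no spread between replicates can be given for any value below. The deposited score was read as a p-value of IP over input, but the file does not say whether it is an FDR instead. Peaks with smaller scores are called stronger here, and a score listed as 0 as one too small to be stored. Read counts and depth are unknown, so a gene without a peak may be unmethylated, weakly expressed or below detection.

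In TGF-β signalling, an activated receptor pair phosphorylates SMAD2 and SMAD3, which enter the nucleus with SMAD4 and switch on target genes. In breast cancer cells these targets include secreted factors and receptors that act on the bone and lung environment. m6A is the most common internal modification of mRNA, is placed mainly at RRACH sites (R is A or G, H is A, C or U) and is often found near stop codons and in long internal exons. Reader proteins such as YTHDC1 bind it and affect splicing, nuclear export and stability of the RNA.

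Strand has to be considered before any comparison, because 72.3% of the peaks in the list were on minus-strand genes. Of the RefSeq protein-coding genes with a known strand, 55.6% of 7758 minus-strand genes and 29.3% of 8085 plus-strand genes had a peak. Among the 9 genes, 7 are on the minus strand and 6 of these had a peak, PTGS2 being the exception. Both plus-strand genes, ANGPTL4 and TGFBI, had none. A stronger peak, with a score no larger than the list median of 5.2e-08, was found for 3 genes, CCN2, ADAMTS1 and CXCR4, whereas 43.8% of minus-strand and 12.2% of plus-strand protein-coding genes had one. With 9 genes, these counts describe the list and were not tested. For ANGPTL4 and TGFBI, the lack of a peak cannot be told apart from the lower share of plus-strand genes with one.

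**Figure D1:**
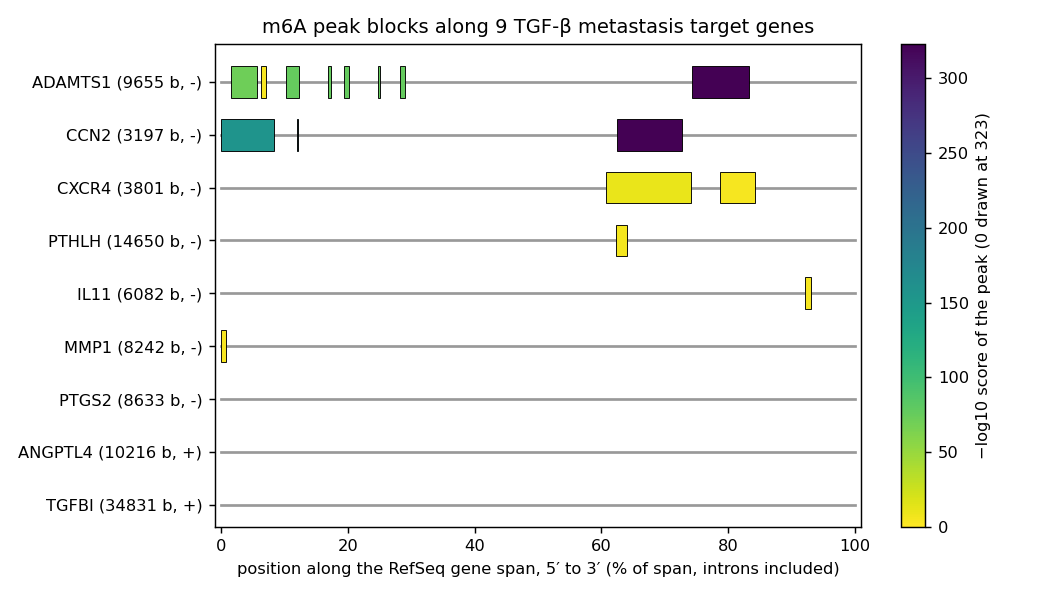
Peak blocks along the RefSeq span of each gene from 5′ to 3′, in percent of the span with introns included; the span in bases and the strand are given beside each name, and colour gives the −log10 score of the peak. CCN2 and ADAMTS1 have a peak near the 5′ end and a stronger one in the 3′ portion listed at 0, and the bottom 3 genes have none.

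CCN2, also known as CTGF, encodes a secreted matricellular protein that promotes matrix deposition and is a direct SMAD and YAP target. It had 2 peaks with 601 spliced bases on chromosome 6 (minus strand, ENSG00000118523.6). The peak nearer the 3′ end ran from 131949045 to 131949374, was 330 bases long in 1 block, and was listed at 0. It began 1998 bases from the 5′ end of the 3197-base RefSeq span, and 869 bases separated it from the 3′ end. Only 2.92% of minus-strand peaks were listed at 0. The other peak lay at the start of the transcript, from 131950988 to 131951372, in a block of 266 bases and a block of 5 bases that were 114 bases apart, with a score of 1e-156. Its 5′ border was the first base of the RefSeq span. A score at or under 1e-156 was reached by 7.54% of minus-strand peaks. The list thus gives CCN2 a peak at its start and a stronger one in the 3′ portion of its span.

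The 5′ peak of CCN2 alone among the 11 overlapped a peak of the other strand. Of its bases, 148 were shared with a plus-strand peak of ENSG00000227220.1 (score 1e-114, 292 spliced bases), whose first block ran from 131951091 to 131951254. Where the 2 peaks overlap, the list alone does not assign the signal to a strand. The 3′ peak of CCN2 had no such overlap, and the strongest score of the gene stays at 0 without the 5′ peak.

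The first transcribed bases of CCN2 lie inside its 5′ peak and show what an RRACH match in such a peak looks like. The bases are printed from the RefSeq promoter table (GRCh38.p14), with the match in capitals. PTGS2 is shown beside it because its first bases also hold a match while the gene has no peak.
CCN2, chr6:131951328-131951357, minus strand: cccgctgagaggAGACAgccagtgcgactc
PTGS2, chr1:186680374-186680403, minus strand: tgagcgtcaggagcacgtccagGAACTcct
The CCN2 match covers bases 28 to 32 of the transcript, counted from 1 at the RefSeq start, and its central A at position 131951343 lies outside the block of the opposite-strand peak. The PTGS2 match covers bases 43 to 47.

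The motif was searched on the sense strand only, as AAC or GAC preceded by A or G and followed by A, C or T, which makes 12 pentamers. Of 35097 windows of the first 50 transcribed bases, 40.8% held a match (95% Wilson interval 40.3 to 41.3%). Among the 1248 windows wholly inside a peak block of the same strand the share was 39.4% (36.7 to 42.2%), so a match in such a window does not set peak regions apart from the rest. The windows of IL11, PTHLH, ANGPTL4 and TGFBI and the 3 windows of CXCR4 held no match. ADAMTS1 and MMP1 were not in the promoter table.

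ADAMTS1 encodes a secreted metalloprotease that cleaves the proteoglycan versican and releases growth factors from the matrix. It had 4 peaks with 1768 spliced bases on chromosome 21 (minus strand, ENSG00000154734.15), the most of the 9 genes. The strongest, from 26837369 to 26838236, was 868 bases long in 1 block and listed at 0. The 3′ end of the span was 1614 bases away, and 5.72% of minus-strand peaks were as long or longer. The other 3 peaks lay in the first 30% of the span. From the 5′ end, they were a peak of 390 bases (26844871 to 26845260, score 1e-71), a weak peak of 90 bases (26844722 to 26844811, score 0.00046) and a peak of 420 bases in 5 blocks (26842605 to 26844423, score 6.3e-77). The first of them began 149 bases from the 5′ end of the span. Only 59 bases separated it from the weak peak, and 298 bases separated the weak peak from the one in 5 blocks. Between these and the strong 3′ peak, 4368 bases of genomic sequence held no peak.

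In the list, ADAMTS1 and CCN2 shared a layout, a peak near the 5′ end with a score of 1e-71 or less and a 3′ peak listed at 0. For CCN2 this rests on the 5′ peak of which 148 bases overlap the opposite-strand peak, and without such peaks CCN2 no longer had the layout. A peak in the first 10% of the span together with one past its middle was found for 15.5% of 5110 minus-strand protein-coding genes in the list, or 25.7% of the 3076 such genes with at least 2 peaks. With the scores of the layout also required, 8 of the 5110 genes (0.157%), the pair included, had it. These comparisons were chosen after the values had been seen. The cutoff of 1e-71 is the score of the 5′ peak of ADAMTS1 itself, so the pair meets it by construction. The share of 0.157% is therefore no measure of how unusual the pair is.

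CXCR4 encodes the receptor for the chemokine CXCL12, which guides tumour cells to bone marrow and lung. It had 2 peaks with 718 spliced bases on chromosome 2 (minus strand, ENSG00000121966.7). The stronger ran from 136115333 to 136115840, was 508 bases long and had a score of 5e-12. The weaker, from 136114945 to 136115154, was 210 bases long with a score of 1.2e-05, and 178 bases lay between them. Both lay between 60% and 85% of the 3801-base span, the second 596 bases from its 3′ end. The peaks of CXCR4 were long for their score: 18.2% of minus-strand peaks were at least as long as the stronger, whereas 46.1% had a score at or under its own.

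PTHLH encodes parathyroid hormone-related protein, which tumour cells secrete and which drives bone resorption through osteoblasts. It had 1 peak of 240 bases on chromosome 12 (27963358 to 27963597, minus strand, ENSG00000087494.16) with a score of 5e-07. The peak lay at 63.2% of a span of 14650 bases, 5274 bases from the 3′ end. Its length equalled the median of minus-strand peaks, 240 bases, and its score was weaker than their median of 3.2e-10.

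IL11 encodes a cytokine of the IL-6 family that stimulates osteoclast formation. It had 1 peak of 61 bases on chromosome 19 (55364798 to 55364858, minus strand, ENSG00000095752.7), 416 bases from the 3′ end of the span. Its score was 4.6e-05, and 74.8% of minus-strand peaks had a score at or under that. It was the only one of the 11 peaks with its midpoint in the final 10% of the span.

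MMP1 encodes interstitial collagenase, which cuts fibrillar collagen. Its only peak (chromosome 11, 102798100 to 102798160, minus strand, ENSG00000196611.5) was also 61 bases long, had a score of 0.0012 and occupied the first 61 bases of the RefSeq span. At least this length was found for 98.4% of minus-strand peaks, and 92.2% of them had a score at or under 0.0012. A peak that begins at the first base of the span, as in MMP1 and CCN2, was found for 7.10% of 5110 minus-strand protein-coding genes in the list. RefSeq places the transcribed pseudogene WTAPP1 over MMP1, and no peak was listed for it.

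No peak was listed for 3 genes. PTGS2, the inducible cyclooxygenase that makes prostaglandin precursors, is on the minus strand of chromosome 1. ANGPTL4, a secreted protein that inhibits lipoprotein lipase and loosens endothelial junctions, is on the plus strand of chromosome 19, and TGFBI, a secreted matrix protein that binds integrins, is on the plus strand of chromosome 5. Their RefSeq spans were 8633, 10216 and 34831 bases. For comparison, the spans of the genes with peaks ran from 3197 bases in CCN2 to 14650 bases in PTHLH.

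**Figure D2:**
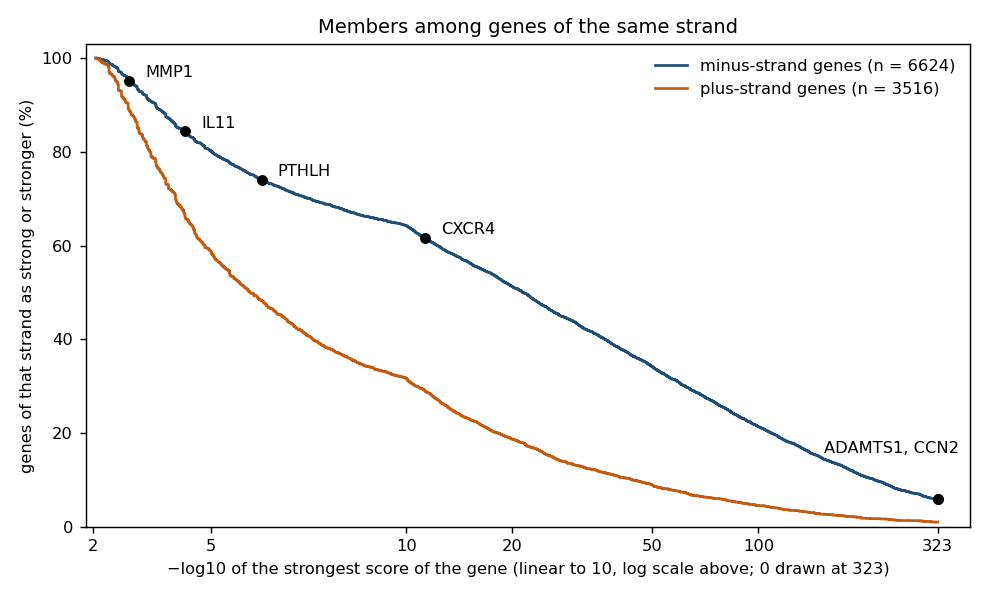
For each −log10 score on the horizontal axis (linear to 10, log scale above), the percent of genes of that strand whose strongest peak was as strong or stronger; points are the 6 genes with peaks, all on the minus strand. ADAMTS1 and CCN2 stand at 5.83%, and the other 4 lie between 61.7% and 95.2%.

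Ranked against the 6624 minus-strand genes of the list by strongest score, the 6 genes fell into separate places rather than one group. CCN2 and ADAMTS1 were among the 386 minus-strand genes (5.83%) listed at 0, which cannot be ordered further. As strong a peak or a stronger one was found in 61.7% of minus-strand genes for CXCR4, 74.0% for PTHLH, 84.4% for IL11 and 95.2% for MMP1. The median strongest score of minus-strand genes was 4e-22, so 2 of the 6 genes were above the middle of this ranking and 4 below it. The median of the 6 shares was 67.8%. By summed peak bases the order changed. ADAMTS1 was exceeded or equalled by 7.50% of minus-strand genes, CXCR4 by 37.4%, CCN2 by 44.3% and PTHLH by 75.5%, while IL11 and MMP1 stood at 98.8% each. Peaks no weaker than the list median were also counted alone, among the minus-strand genes with such a peak. The shares were then 9.57% for ADAMTS1, 59.4% for CXCR4 and 50.8% for CCN2, with ADAMTS1 alone above the middle. Both CCN2 peaks pass this filter, so its peak bases were unchanged and its share rose because fewer genes were compared. Over all minus-strand genes of the list, the median was 513 bases per gene. ADAMTS1 was the only one of the 9 with 4 peaks, a number reached by 15.2% of minus-strand genes.

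CCN2, CXCR4 and ADAMTS1 resembled each other in how much of the gene was covered. Peaks took up 18.8%, 18.9% and 18.3% of their spans, and 6.65%, 6.59% and 6.97% of 5110 minus-strand protein-coding genes reached as much. In PTHLH, IL11 and MMP1 peaks covered 1.64%, 1.00% and 0.740% of the span. The genomic span includes introns, so this share also reflects the compactness of the gene.

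**Figure D3:**
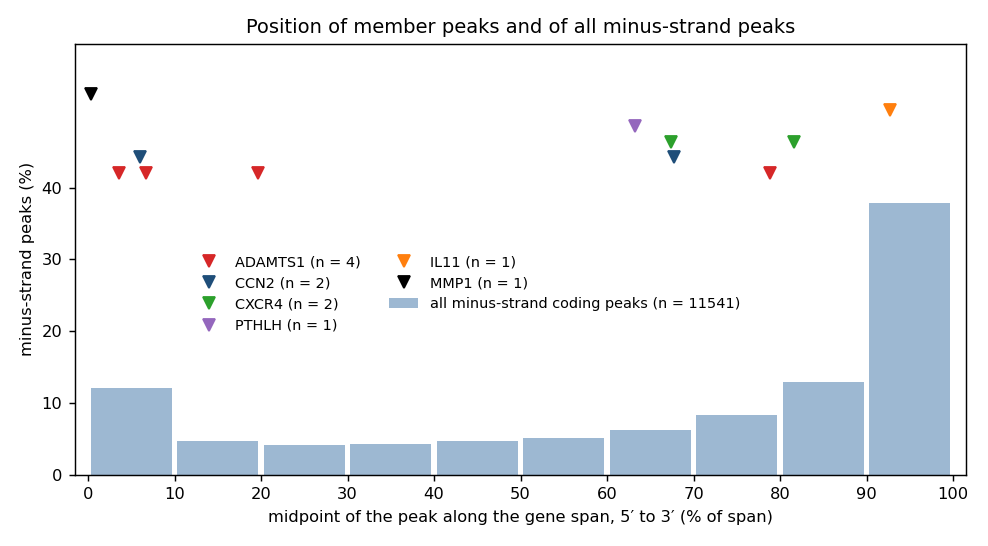
Midpoints of the 11 peaks along the gene span (triangles, a row per gene, height without meaning) above the distribution of 11541 minus-strand peaks of protein-coding genes over 10 equal parts of the span (bars, percent of peaks). In the first part lie 4 peaks and in the last 1, which held 37.8% of all minus-strand peaks.

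Along the gene, 4 of the 11 peaks had their midpoint in the first 10% of the span, 6 lay between and 1 in the final 10%. Over all minus-strand peaks of protein-coding genes, 12.1% lay in the first 10% and 37.8% in the final 10%. Peaks of a gene share its span and are not independent, and 2 of the 4 in the first part belong to ADAMTS1. The 3′ peaks of CCN2, ADAMTS1 and CXCR4 lay inside the span rather than at its end, with midpoints at 67.7%, 78.8%, 67.4% and 81.6%. Within 1000 bases of the 3′ end, 4 peaks were found, those of IL11 and CXCR4 and the 3′ peak of CCN2, against 20.7% of minus-strand peaks. Thus the count near the 3′ end depends on whether distance is taken in percent or in bases. Which exon or UTR a peak lies in was not analysed here.

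**Figure D4:**
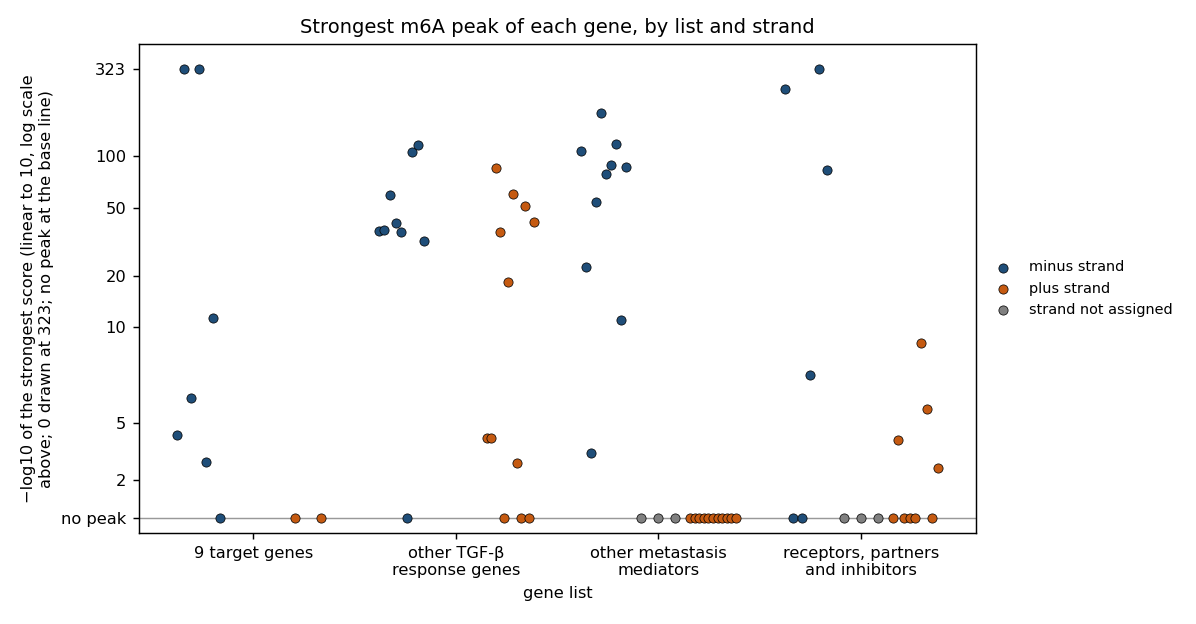
Strongest −log10 score (vertical axis, linear to 10, log scale above) of each gene in 4 lists, minus-strand genes in blue, plus-strand genes in orange and genes of unassigned strand in grey; genes without a peak are on the base line. Among the other metastasis mediators, the 10 genes with a peak are all on the minus strand, their strand being taken from the peak.

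To place the 9 genes among related transcripts, 3 further lists were examined. The strand of a gene without a peak was taken from the RefSeq promoter table, and genes missing there were left unassigned. Of 21 other TGF-β response genes, 17 had a peak and 14 had one no weaker than the list median. By strand, 8 of 9 minus-strand and 9 of 12 plus-strand genes had a peak, beside 55.6% and 29.3% of protein-coding genes. A peak no weaker than the list median was found for 8 and 6 of them, beside 43.8% and 12.2%. The list was chosen with earlier results of these data known, so these counts only describe it. They do not bear on why ANGPTL4 and TGFBI had no peak. The strongest on the minus strand were KLF10 (1e-116), an early TGF-β-induced transcription factor, SNAI2 (1e-105), which represses E-cadherin, and the cell cycle inhibitor gene CDKN2B (4e-60). On the plus strand they were BHLHE40 (2.5e-86), TAGLN (1.3e-60) and VEGFA (7.9e-52). All 570 bases of this TAGLN peak were shared with a peak of PCSK7 on the opposite strand, so the list alone does not assign its signal to a strand. The VEGFA peak shared 134 of its 840 bases with an opposite-strand peak of ENSG00000272114. CDKN1A, FN1, ID1 and TPM1 had no peak. No gene of this list was listed at 0, a score found for 5.83% of minus-strand and 0.995% of plus-strand genes with peaks. With shares this low, its absence among 21 genes does not set CCN2 and ADAMTS1 apart.

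Of 24 other metastasis mediators of breast cancer, 10 had a peak, and all 10 were on the minus strand. Of all protein-coding genes of known strand, 55.6% on the minus and 29.3% on the plus strand had one. The 11 mediators known to be on the plus strand had none, namely SPP1, FST, FGF5, EREG, CXCL1, VCAM1, LTBP1, KYNU, ST6GALNAC5, PLAU and CXCL8. MMP2, FSCN1 and IL13RA2 were also without a peak, and their strand was not assigned. HBEGF (1e-179), an EGF receptor ligand, S100A4 (1e-117) and DUSP1 (1e-107) were strongest. A gene with a peak has its strand from the peak, so the minus-strand count holds genes that the promoter table may lack. Genes without a peak that are missing there count on neither strand, which favours a full count on the minus strand. The division by strand was not seen in the TGF-β response genes, and it was not tested. Expression of these genes was not measured by the list.

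Among 18 receptors, partners and inhibitors of the 9 proteins, 8 had a peak, 4 of 6 on the minus strand and 4 of 9 on the plus strand. The shares of protein-coding genes with a peak were 55.6% and 29.3%, and with so few genes the counts do not stand apart from them. ACKR3, PTGER3 and LRP6 had no assigned strand and no peak, and leaving them out favours higher shares by strand. IL6ST, the signalling chain of the IL-11 receptor, had a peak of 1e-246 that shared 196 bases with one of ENSG00000262211 on the opposite strand, whereas IL11RA had none. TIMP2, an inhibitor of matrix metalloproteases, was listed at 0, and TIMP1 had a weaker peak (1.8e-06). PTH1R, the receptor for PTHLH, had a score of 7.6e-05, and F2R, a receptor that MMP1 can cleave, one of 6.3e-10. ITGB5 reached 1.6e-83. CXCL12 and ACKR3, the ligand of CXCR4 and the other receptor for it, had no peak. Neither did PTGER1, PTGER2, PTGER3, PTGER4, PTGS1, ITGAV or LRP6, so that of the prostaglandin genes in the list PTGES (3.3e-08) alone had a peak.

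Close relatives were examined for CCN2, ADAMTS1, MMP1, ANGPTL4, IL11 and CXCR4. The shares of protein-coding genes with a peak were 55.6% on the minus and 29.3% on the plus strand. Relatives of unassigned strand are in the totals only. A relative with a peak has its strand from the peak, so all the unassigned ones lacked a peak. Leaving them out favours higher shares by strand, above all for the MMP and IL-6 relatives, and these were not tested against the shares given. CCN1, the relative of CCN2 on the plus strand, had 2 peaks (7.9e-42), the same number as CCN2, while CCN3, CCN4, CCN5 and CCN6 had none. Of 18 ADAMTS relatives 10 had a peak, 9 of 13 on the minus strand and 1 of 4 on the plus strand. Their strongest scores ran from 1.6e-31 in ADAMTS12 and 6.3e-28 in ADAMTS7 to 0.00025 in ADAMTS2, all weaker than ADAMTS1. The others were ADAMTS15 (1.1e-09), ADAMTS17 (1e-09), ADAMTS8 (8.1e-08), ADAMTS3 (3.3e-07), ADAMTS5 (3.9e-07), ADAMTS4 and ADAMTS9 (0.00014 each). The ADAMTS17 peak shared 356 bases with an opposite-strand peak. Of 17 MMP relatives 6 had a peak, 2 of 5 on the minus strand and 4 of 6 on the plus strand. All had a smaller score than MMP1, namely MMP14 (4e-72), MMP19 (1e-16), MMP16 (6.3e-13), MMP17 (3e-10), MMP9 (2.5e-09) and MMP15 (0.00014). MMP14, MMP17, MMP9 and MMP15 are on the plus strand, unlike MMP1. The median strongest score was 1e-06 for plus-strand genes and 4e-22 for minus-strand genes. The MMP9 peak shared 289 bases with opposite-strand peaks of SLC12A5-AS1. Of 7 ANGPTL relatives, 6 had no peak, as ANGPTL4 had none, and ANGPTL2 had 4 peaks (1e-173). ANGPTL2 was 1 of 4 relatives on the minus strand, and 2 were known to be on the plus strand. In the IL-6 family, CLCF1 (6.3e-53) and LIF (1.3e-32) had stronger peaks than IL11, and the other 5 had none. CLCF1 and LIF were the only 2 relatives assigned to the minus strand, and 2 others were on the plus strand. None of the 6 other CXC receptors examined had a peak, of which 2 were known to be on the minus and 3 on the plus strand.

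By strongest score, the genes of the 3 further lists nearest to the 6 on the same strand were TIMP2 for CCN2 and ADAMTS1 (all listed at 0), L1CAM for CXCR4 (7.9e-12), PTGES for PTHLH (3.3e-08), and SPARC for both IL11 and MMP1 (0.00037). These were chosen from 22 minus-strand genes with a peak and say only that the scores were close. As to the identity of the cells, the mesenchymal marker VIM had a peak (5e-27, sharing 132 bases with one of VIM-AS1), and ERBB2 had 3 (2.5e-15, sharing 224 bases with one of MIEN1). CD44, EPCAM, CDH1, ESR1 and PGR had none. A peak is not a measure of expression, and the cell type could not be checked from it.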

How the data were processed

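The 4 libraries (2 input, 2 IP) were grouped by their titles. According to the study's methods and the labels, reads from a stranded kit were aligned with STAR to the GENCODE v33 annotation (hg38), peaks were called with exomePeak at default settings and those passing a fold enrichment and an FDR threshold were kept. The deposited score was read as a p-value for both replicates together, and the deposited block columns (unit other) were used as listed. Depth is unknown.

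Gene IDs were matched without version, for 10103 of 10140 IDs and all 9 members. Spans, biotypes and sequences came from RefSeq (GRCh38.p14). The promoter table gave 7 of the 9 members, and the strand of 15843 of 20056 protein-coding genes. Coordinates start from 1. Position is the peak midpoint along the genomic span, for peaks wholly inside it (15944 of 17147 peaks of protein-coding genes). Overlap required 1 shared base of blocks. Scores of 0 were ranked together at a −log10 of 323. Wilson intervals cover counting error only and treat windows as independent. No test was made, since the list has no replicate values. The members and gene lists were chosen with earlier results of these data known. Named were all members, the 3 genes with the smallest score per strand and all genes without a peak in each of the 3 further lists, relatives with a peak and the nearest gene in log10 score; a few others without a peak and those in counts of 5 or fewer were named after their values were seen. Other genes of the lists were only counted, and a gene first placed in them was left out of all counts and is not reported here. Functions were tested on simulated data. Python 3.11.15, pandas 2.3.3, scipy 1.17.1 and matplotlib 3.10.9 were used.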

Additional observations from a re-analysis of the deposited data

How the results depend on the processing

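With peaks at or under the list median score, 3 of the 9 genes kept a peak in place of 6. In the ranking by peak bases, 1 gene in place of 3 then stood in the upper part. That ranking held only genes with such a peak, so the set of genes compared changed as well. Of the 11 peaks, 2 lay in the final 20% of the span and 4 within 1000 bases of its 3′ end, in place of 1 in the final 10%. The other 9 alternatives left the counts within 1.5 times, among them the first part of the list alone, merging, the median of the same strand, a score of at most 1e-10 and leaving out peaks that overlap the opposite strand. Of 27 alternative values of the ranks of single genes, 21 left the 95% Wilson interval of the value in the report. A rank among all genes of the list is a full count and not a sample. The interval was therefore only a narrow cutoff for a change and measures no uncertainty of the rank. For CXCR4 the share with a score as strong was 61.7% in the report. It was 69.8% against protein-coding genes of the strand and 50.4% against genes of both strands. Its share by peak bases was 37.4% in the report. With only peaks at or under the median, among genes with such a peak, it was 59.4%. The cause was not tested beyond the alternatives named.

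No paired analysis was possible because peaks of the 4 libraries were deposited as 1 combined list. For the same reason, leaving out a replicate was not run. Depth is unknown, which limits statements on ANGPTL4, TGFBI and PTGS2.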
